A study of Mus musculus with 15 samples.

Results

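The core circadian clock genes were followed in bulk RNA of mouse forebrain: Per1, Per2, Per3, Ciart, Nr1d1, Dbp, Cry1, Arntl, Clock and Npas2. They were taken from the count table by gene symbol, each Ensembl identifier once, which gave 10 of 55487 gene identifiers. All 10 were among the 21780 genes that passed a filter on low counts. They were chosen by their counts in these same libraries, whose earlier analysis had shown the clock to differ between treated and untreated brains. Their levels, fold changes and counts of calls are therefore a description and no independent evidence.

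The study profiled frozen forebrain of wild-type mice by RNA sequencing, with 5 groups of 3 libraries. In PLX1X the label is PLX 1x, and in PLX3X_CD0 it is PLX 3x. In PLX3X_CD30 the titles say only PLX and the group comes from the library name. IR_BMT is titled IR-BMT, with library names that end in IR, and NT had no treatment. What PLX, CD0, CD30 and IR-BMT stand for is not said in the labels. They give no dose, age, sex or hour of dissection, and do not say whether libraries came from separate mice. Effects of treatment and of the hour of collection therefore cannot be told apart, and the spread behind each p-value may be partly technical.

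In mammals the clock is a feedback loop of transcription. ARNTL, also called BMAL1, pairs with CLOCK or its relative NPAS2 and switches on genes with E-box sequences, among them the Per and Cry genes, Ciart, Nr1d1 and Dbp. PER and CRY proteins then hold back the pair that made them, and NR1D1, also called REV-ERB alpha, represses Arntl through ROR elements, so that Arntl and Npas2 RNA run roughly opposite to the E-box genes over a day. Below, Per1, Per2, Per3, Ciart, Nr1d1 and Dbp are called the repressor and output arm, and Arntl, Clock and Npas2 the activator arm. Cry1, which is driven by both E-boxes and ROR elements and peaks later, was kept apart.

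The promoters were searched for the short sequences through which these factors act. For 6 of the members with a match, 1 window each is shown here, to let the letters be read beside the levels that follow. The Clock window with a match is not printed. Each window holds 300 bases, from 250 bases before to 50 bases after a RefSeq start site on GRCm38.p6, and is printed in the direction of transcription. Capitals mark matches, on either strand, to the E-box CACGTG, the related E-prime-box CACGTT, the D-box TTATGNAA and the ROR core AGGTCA. Windows were present for 9 of the 10 genes, all but Per2.
Ciart (chr3:95882179-95882478, minus strand): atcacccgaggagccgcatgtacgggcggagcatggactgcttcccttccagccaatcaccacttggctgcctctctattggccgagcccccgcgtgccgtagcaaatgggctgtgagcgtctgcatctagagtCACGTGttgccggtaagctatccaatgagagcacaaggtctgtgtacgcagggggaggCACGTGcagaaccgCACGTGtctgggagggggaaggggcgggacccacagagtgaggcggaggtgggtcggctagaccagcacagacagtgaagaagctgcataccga
Per1, upstream start (chr11:69098699-69098998, plus strand): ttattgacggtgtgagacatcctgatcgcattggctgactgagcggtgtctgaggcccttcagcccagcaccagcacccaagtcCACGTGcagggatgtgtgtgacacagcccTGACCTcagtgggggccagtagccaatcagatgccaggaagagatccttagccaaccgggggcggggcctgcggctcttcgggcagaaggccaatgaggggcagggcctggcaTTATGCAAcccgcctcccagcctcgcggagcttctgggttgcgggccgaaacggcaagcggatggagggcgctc
Per3 (chr4:151044616-151044915, minus strand): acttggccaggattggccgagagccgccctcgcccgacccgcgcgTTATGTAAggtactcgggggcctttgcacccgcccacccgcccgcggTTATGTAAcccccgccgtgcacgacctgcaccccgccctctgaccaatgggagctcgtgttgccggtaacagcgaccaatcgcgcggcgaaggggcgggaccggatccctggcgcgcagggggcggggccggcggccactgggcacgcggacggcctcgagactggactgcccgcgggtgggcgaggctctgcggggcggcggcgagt
Nr1d1 (chr11:98775328-98775627, minus strand): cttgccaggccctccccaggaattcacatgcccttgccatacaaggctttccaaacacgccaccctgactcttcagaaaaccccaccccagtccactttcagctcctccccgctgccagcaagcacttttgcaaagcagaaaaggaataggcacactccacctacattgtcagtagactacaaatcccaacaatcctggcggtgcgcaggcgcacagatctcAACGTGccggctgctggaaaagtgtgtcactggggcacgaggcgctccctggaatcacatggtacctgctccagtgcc
Cry1 (chr10:85185005-85185304, minus strand): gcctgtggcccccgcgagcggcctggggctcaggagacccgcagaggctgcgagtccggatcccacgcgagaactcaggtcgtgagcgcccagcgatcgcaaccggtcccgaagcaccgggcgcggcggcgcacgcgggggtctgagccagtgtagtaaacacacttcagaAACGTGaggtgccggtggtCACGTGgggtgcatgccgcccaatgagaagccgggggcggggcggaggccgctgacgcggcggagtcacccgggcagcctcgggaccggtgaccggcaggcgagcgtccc
Arntl, second start (chr7:113207261-113207560, plus strand): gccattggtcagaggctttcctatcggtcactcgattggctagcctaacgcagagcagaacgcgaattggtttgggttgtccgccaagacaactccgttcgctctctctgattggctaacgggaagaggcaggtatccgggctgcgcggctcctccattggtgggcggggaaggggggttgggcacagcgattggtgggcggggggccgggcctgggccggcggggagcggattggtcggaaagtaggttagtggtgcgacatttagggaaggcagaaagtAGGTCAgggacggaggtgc
The Ciart window held 3 E-boxes, at -116, -58 and -44 from the start site. An E-box was present in 7.15% of 32851 RefSeq windows of this length, and 3 or more were present in 0.0883%. The upstream window of Per1 had 1 E-box at -166, a ROR core at -137 and a D-box at -24, and its other window held no match. Per3 had no E-box but 2 D-boxes, at -205 and -158, where any D-box was present in 3.38% of windows and 2 or more in 0.161%. Cry1 had an E-box at -60 and an E-prime-box at -79. Nr1d1 had an E-prime-box at -28, a motif present in 4.68% of windows. The ROR core of Arntl lay at 31 bases past its second start, and that motif was present in 16.3% of windows. The window of the first Arntl start held no match. The windows of Dbp and Npas2 held none of these letters, 1 of 3 Clock windows held a ROR core at -119, and the cAMP response element TGACGTCA, present in 1.79% of windows, was in none of the 13 member windows. Such matches describe the letters alone.

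Total counts ran from 19249641 to 54801136 per library, and no pair of replicates agreed within sampling noise. All 7 forebrain neuron markers had counts in every group. Of 7 genes that mark the suprachiasmatic nucleus, the seat of the central clock, the summed level was 32.6 to 49.6 CPM over the 15 libraries, against 4034 to 6107 CPM for the forebrain markers. These sums are of different genes and do not measure how much of each tissue was present. The summed level of 12 microglial and macrophage genes was 35.9 to 78.7 CPM in PLX1X, 30.2 to 60.5 CPM in PLX3X_CD0, 276 to 290.2 CPM in PLX3X_CD30 and 286 to 324 CPM in IR_BMT, against 609 to 725 CPM in NT. Some libraries stood apart in tissue markers: NT replicate 1 had 307.5 CPM of 7 thalamic genes where no other library passed 137 CPM, and 6 choroid plexus genes summed to 1626 CPM in PLX3X_CD0 replicate 1 and 491 CPM in IR_BMT replicate 1 where no other library passed 30.5 CPM. In bulk RNA, fewer cells of a type and less RNA per cell cannot be told apart.

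Levels below are in CPM after TMM scaling, which puts the libraries on one footing, and folds are log2 fold changes ± SE from edgeR's quasi-likelihood fit over all 15 libraries. A gene is said to have risen or fallen where its p-value, adjusted over all 21780 genes by Benjamini-Hochberg, was under 0.05. Per kilobase of exon in NT, Nr1d1 was the most abundant member at 33.1 ± 0.99 CPM per kb (SD, n = 3), followed by Npas2 at 17.2 ± 1.87 and Cry1 at 13.3 ± 1.44 CPM per kb. Dbp had 11.8 ± 1.99, Per2 7.80 ± 0.133, Arntl 7.19 ± 0.239 and Per1 6.59 ± 0.773 CPM per kb. The lowest levels per kb in NT were those of Clock (5.36 ± 0.57), Ciart (5.31 ± 0.381) and Per3 (3.61 ± 0.305). Nr1d1 shares 263 exon bases with Thra, Dbp 539 with Sphk2 and Arntl 33 with Gm45355, each on the opposite strand, and the library kit does not mark strand, so part of their counts may belong to the partner.

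The period genes encode the proteins that, with the cryptochromes, close the loop by holding back ARNTL and CLOCK. Per1 (ENSMUSG00000020893, chr11:69095217-69109960, plus strand, mm10) also answers quickly to neuronal activity and glucocorticoids. Per1 had 51.1, 55.8 and 64.7 CPM in the PLX1X libraries, 30.9, 34.3 and 34.3 in PLX3X_CD0, 53.1, 50.4 and 37.7 in PLX3X_CD30 and 32.5, 45.3 and 35.8 in IR_BMT, against 39.2, 32.1 and 40.0 CPM in NT. The 3 PLX1X libraries all lay above the 3 NT libraries, while each other treated group overlapped NT. Per2 (ENSMUSG00000055866, chr1:91415982-91459324, minus strand) encodes a core repressor of the loop. Per2 had 78.2, 80.7 and 101 CPM in the PLX1X libraries, 42.4, 44.8 and 47.5 in PLX3X_CD0, 71.6, 76.7 and 50.9 in PLX3X_CD30 and 36.9, 42.9 and 38.7 in IR_BMT, against 45.4, 45.1 and 46.5 CPM in NT. NT libraries lay within 1.5 CPM of each other, all PLX1X and PLX3X_CD30 libraries were above them, and all IR_BMT libraries were below. Per3 (ENSMUSG00000028957, chr4:151003652-151044665, minus strand) is the member of the family that the loop needs least. Per3 had 40.3, 42.9 and 38.2 CPM in the PLX1X libraries, 33.3, 37.1 and 34.9 in PLX3X_CD0, 40.4, 36.2 and 35.7 in PLX3X_CD30 and 29.8, 33.2 and 30.3 in IR_BMT, against 36.2, 36.5 and 31.3 CPM in NT. PLX1X again lay above NT, by a margin of under 2 CPM, and the other groups overlapped it.

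Ciart (ENSMUSG00000038550, chr3:95878503-95882251, minus strand), also called Chrono, encodes a further repressor of ARNTL and CLOCK and had the widest range of the members as a ratio of levels. Ciart had 34.8, 43.9 and 40.1 CPM in the PLX1X libraries, 14.0, 14.0 and 15.0 in PLX3X_CD0, 27.7, 26.4 and 17.3 in PLX3X_CD30 and 13.5, 17.3 and 15.5 in IR_BMT, against 12.6, 12.4 and 11.0 CPM in NT. The group means ran in the order PLX1X at 39.6 ± 4.56, PLX3X_CD30 at 23.8 ± 5.65, IR_BMT at 15.4 ± 1.90, PLX3X_CD0 at 14.3 ± 0.565 and NT at 12.0 ± 0.861 CPM (SD, n = 3 each). IR_BMT and PLX3X_CD0 overlapped, and every other pair of neighbours in that order was separated, PLX3X_CD30 from IR_BMT by less than 0.1 CPM. Nr1d1 (ENSMUSG00000020889, chr11:98767932-98775333, minus strand) encodes the nuclear receptor that represses Arntl. Nr1d1 had 143, 151 and 153 CPM in the PLX1X libraries, 120.5, 112 and 112 in PLX3X_CD0, 146, 146 and 134 in PLX3X_CD30 and 130.2, 164 and 134 in IR_BMT, against 99.3, 101 and 105 CPM in NT. All 12 treated libraries were above the 3 NT libraries. Dbp (ENSMUSG00000059824, chr7:45705088-45710203, plus strand) encodes a transcription factor that acts through D-boxes and carries the rhythm to genes outside the loop. Dbp had 46.1, 52.3 and 51.9 CPM in the PLX1X libraries, 25.9, 30.5 and 32.5 in PLX3X_CD0, 41.5, 42.3 and 28.8 in PLX3X_CD30 and 27.1, 32.8 and 34.8 in IR_BMT, against 42.1, 33.6 and 30.7 CPM in NT. Only the PLX1X group was separated from NT, where replicate 1 was higher than the other NT libraries.

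Cry1 (ENSMUSG00000020038, chr10:85131700-85185064, minus strand) encodes the cryptochrome with the strongest repression of the loop. Cry1 had 48.1, 48.6 and 56.4 CPM in the PLX1X libraries, 33.8, 42.0 and 42.3 in PLX3X_CD0, 42.1, 52.8 and 41.4 in PLX3X_CD30 and 33.7, 32.9 and 36.8 in IR_BMT, against 49.0, 39.4 and 44.6 CPM in NT. IR_BMT lay below every NT library, and the other groups overlapped NT. In the activator arm, Arntl (ENSMUSG00000055116, chr7:113207465-113314126, plus strand) is the one gene whose loss alone stops the mouse clock. Arntl had 38.1, 38.5 and 49.5 CPM in the PLX1X libraries, 65.1, 52.8 and 61.8 in PLX3X_CD0, 54.4, 58.2 and 61.2 in PLX3X_CD30 and 56.1, 49.6 and 55.5 in IR_BMT, against 52.3, 55.9 and 54.1 CPM in NT. PLX1X was the one group separated from NT, below it. Clock (ENSMUSG00000029238, chr5:76209868-76304792, minus strand) encodes the usual partner of ARNTL and cycles little in most tissues. Clock had 76.1, 71.6 and 74.5 CPM in the PLX1X libraries, 91.5, 86.5 and 90.0 in PLX3X_CD0, 75.8, 78.4 and 78.1 in PLX3X_CD30 and 90.9, 81.3 and 81.4 in IR_BMT, against 65.0, 75.1 and 80.4 CPM in NT. PLX3X_CD0 and IR_BMT were above all NT libraries, IR_BMT by less than 1 CPM. Npas2 (ENSMUSG00000026077, chr1:39193731-39363236, plus strand) stands in for Clock in the forebrain. Npas2 had 73.7, 67.3 and 77.0 CPM in the PLX1X libraries, 100.3, 88.9 and 104 in PLX3X_CD0, 83.8, 86.0 and 91.6 in PLX3X_CD30 and 106, 103 and 106 in IR_BMT, against 75.5, 92.5 and 79.1 CPM in NT. IR_BMT was above NT, and PLX1X held the lowest Npas2 mean of the 5 groups at 72.7 ± 4.93 CPM, against 82.4 ± 8.95 CPM in NT (SD, n = 3 each).

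**Figure D1:**
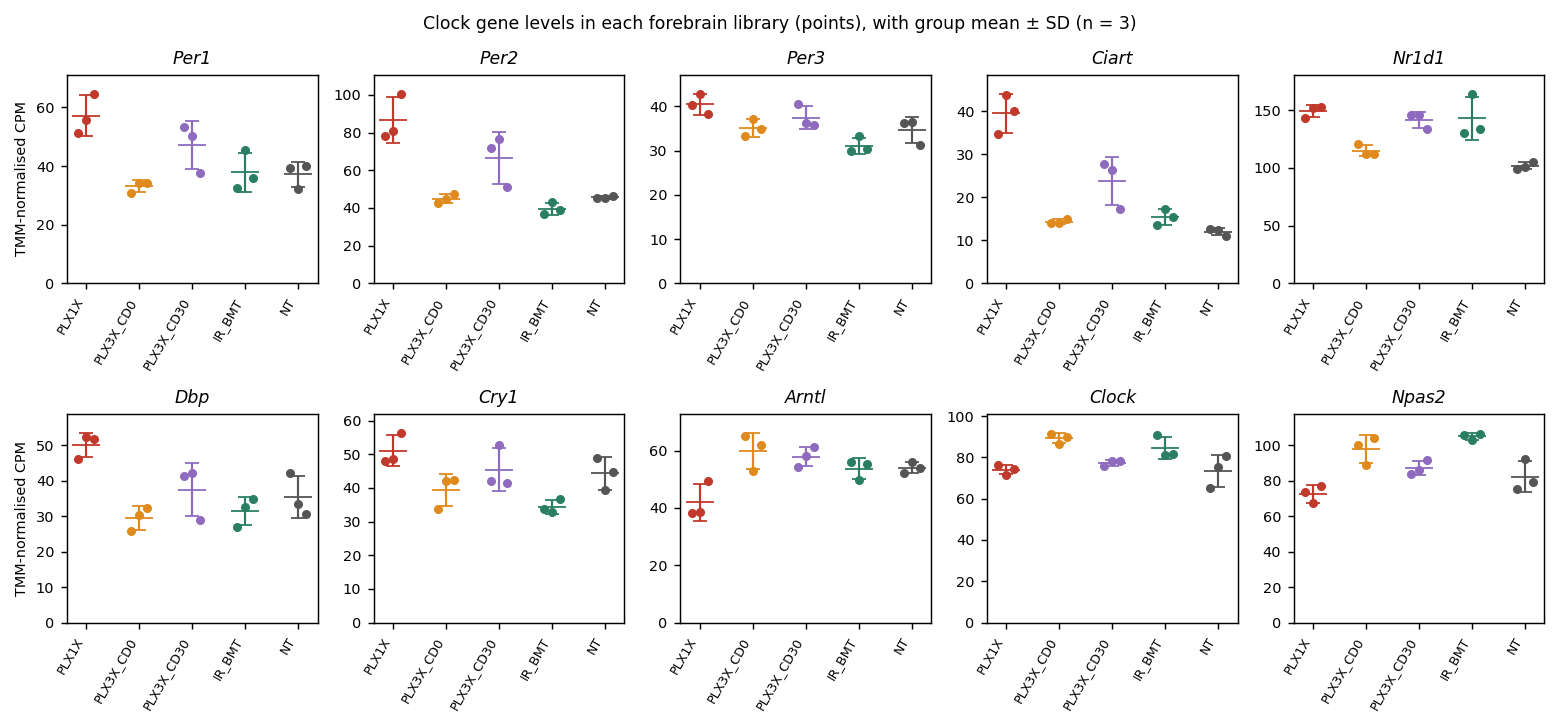
TMM-normalised CPM (y axis, from 0) of the 10 clock genes in each library (points, 3 per group), with the group mean and SD (bars). Ciart, Per1, Per2 and Dbp stand highest in PLX1X and Arntl lowest there, and replicate 3 of PLX3X_CD30 falls below its group in Ciart, Per1, Per2 and Dbp.

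In PLX1X, all 6 genes of the repressor and output arm rose and Arntl fell. Ciart was highest by 1.73 ± 0.15, a 3.31-fold difference, then Per2 by 0.92 ± 0.13, Per1 by 0.62 ± 0.15, Nr1d1 by 0.55 ± 0.07, Dbp by 0.51 ± 0.15 and Per3 by 0.23 ± 0.08 on the log2 scale. Arntl fell by 0.37 ± 0.09 on the log2 scale. Cry1 (0.21 ± 0.11), Clock (0.01 ± 0.07) and Npas2 (-0.18 ± 0.08) did not pass the threshold. Thus 7 of 10 members were called, 6 higher and 1 lower, where 18.1% of all genes tested were called, 9.97% higher and 8.12% lower. The same 7 were the members whose groups did not overlap, against 32% of all genes. The median log2 fold change was 0.37 over the members and -0.04 over all genes. Ciart, Per1, Per2 and Nr1d1 kept their call in every alternative run, while Arntl lost it without PLX1X replicate 1 (-0.29) or 2 (-0.30). Dbp lost it with the replicate number as a block and without NT replicate 2 or 3 or PLX1X replicate 2 or 3 (0.42 to 0.48). Per3 lost it without NT replicate 3 (0.16) or PLX1X replicate 1 (0.24) or 2 (0.19), in a fit of the 6 libraries alone, with a stricter filter and with a correction for transcript length and GC content.

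In PLX3X_CD0, where microglial RNA was about as low as in PLX1X, no repressor and output gene was called and 2 activator genes rose. In the repressor and output arm 0 of 6 genes passed by edgeR, 1 had an unadjusted p under 0.05 and DESeq2 called 0. The largest positive value was that of Ciart at 0.26 ± 0.15 and the lowest that of Dbp at -0.25 ± 0.15. Clock (0.28 ± 0.07) and Npas2 (0.25 ± 0.07) rose, and Arntl stood at 0.15 ± 0.09. These 2 of 10 members compare with 21.7% of all genes called, 12.2% higher and 9.53% lower, so the share is near the background. Groups did not overlap for 3 members, Ciart, Clock and Nr1d1, against 33.8% of all genes. Neither call was made in a fit of the 6 libraries alone, and the Npas2 call was also lost without NT replicate 1 (0.19) or 3 (0.22), without PLX3X_CD0 replicate 1 (0.23) or 3 (0.20) and with the length and GC correction (0.21). With no filter on low counts Ciart and Dbp passed as well, and Nr1d1 passed with the length and GC correction.

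In PLX3X_CD30, Ciart (0.99 ± 0.15), Per2 (0.54 ± 0.13) and Nr1d1 (0.48 ± 0.07) rose and no member fell. Per1 (0.34 ± 0.15), Per3 (0.11 ± 0.08), Dbp (0.09 ± 0.15) and Cry1 (0.04 ± 0.11) did not pass, nor did Arntl (0.10 ± 0.09), Clock (0.07 ± 0.07) and Npas2 (0.08 ± 0.08). These 3 of 10 members compare with 6.57% of all genes called, 4.74% higher and 1.84% lower, and the same 3 were those whose groups did not overlap, against 24.4% of all genes. Replicate 3 of this group stood apart, with Ciart at 17.3 CPM where replicates 1 and 2 had 27.7 and 26.4 CPM. Without it, Ciart was at 1.18, Per2 at 0.70 and Nr1d1 at 0.52, all called. The Per2 call was lost in the fit of the 6 libraries alone and without any 1 of NT replicates 1, 2 and 3 (0.53 to 0.55) or PLX3X_CD30 replicates 1 (0.48) and 2 (0.42).

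In IR_BMT the called members came from both arms. Nr1d1 (0.49 ± 0.07), Npas2 (0.35 ± 0.07) and Clock (0.20 ± 0.07) rose and Cry1 fell by 0.36 ± 0.11 on the log2 scale. Ciart stood at 0.37 ± 0.15, Per1 at 0.03 ± 0.15, Per2 at -0.21 ± 0.13, Per3 at -0.15 ± 0.08, Dbp at -0.16 ± 0.16 and Arntl at -0.01 ± 0.09, none past the threshold. The 4 of 10 members called compare with 30.6% of all genes called, 15.1% higher and 15.4% lower, and the 6 whose groups did not overlap with 40% of all genes, so neither share is far from the background. Nr1d1 and Npas2 kept their call in every alternative. Cry1 lost it without NT replicate 1 (-0.29) or 3 (-0.35) or IR_BMT replicate 1 (-0.33) or 2 (-0.32), and Clock without NT replicate 1 (0.11) or IR_BMT replicate 1 (0.15), with a stricter filter and in the fit of the 6 libraries alone. Ciart was called by DESeq2 (0.38), with no filter on low counts (0.37) and without IR_BMT replicate 1 (0.47), Per2 with no filter, and Per3 without NT replicate 3 and with the length and GC correction. Clock was at 0.54 after that correction, and 5 of 8 striatal markers were lower in IR_BMT, with 1524 to 2320 CPM in sum against 2741 to 2997 CPM in NT. Their part in the result was not tested.

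**Figure D2:**
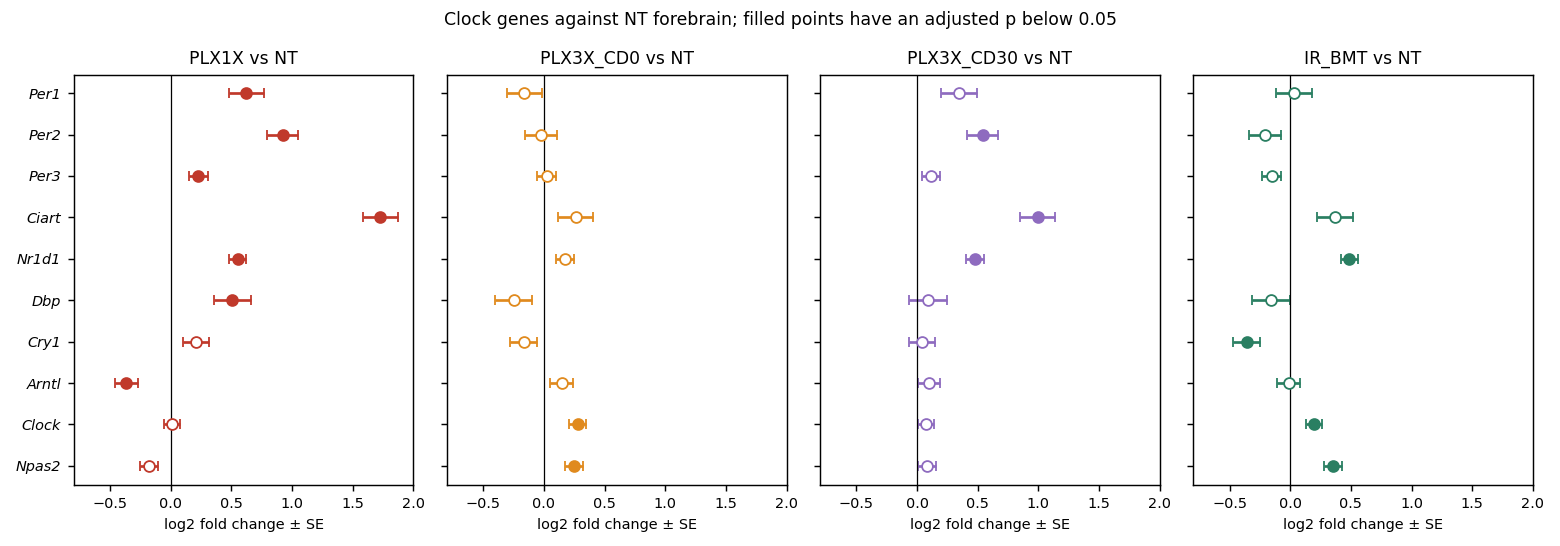
Log2 fold change against NT (x axis, with SE as bars) of each clock gene (rows) in PLX1X, PLX3X_CD0, PLX3X_CD30 and IR_BMT (panels); filled points passed an adjusted p of 0.05. All 6 repressor and output genes are filled to the right in PLX1X, and Ciart, at 1.73, is the farthest from 0.

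The treated groups were also set against each other, which leaves NT out of the difference. PLX3X_CD0 differed from PLX1X in 8 of 10 members, where 2.46% of all genes were called, 1.79% higher and 0.67% lower. Ciart (-1.47 ± 0.14), Per2 (-0.94 ± 0.13), Per1 (-0.78 ± 0.15), Dbp (-0.76 ± 0.15) and Nr1d1 (-0.38 ± 0.07) were lower in PLX3X_CD0, and Arntl (0.51 ± 0.09), Npas2 (0.43 ± 0.07) and Clock (0.27 ± 0.07) were higher. Per3 (-0.20 ± 0.08) and Cry1 (-0.37 ± 0.11) did not pass, although none of the 10 members overlapped between these groups, against 24.7% of all genes that did not overlap. Microglial and macrophage genes were near their lowest in both groups, and 1 of 12 was called between them. The Clock call was lost in 9 of 13 alternatives, among them leaving out any 1 library of either group (0.24 to 0.29), and Cry1 was called by DESeq2. The count of members was 4 without PLX1X replicate 2, and 5 without PLX1X replicate 3 or PLX3X_CD0 replicate 1. Of all genes 0.668%, 1.13% and 1.03% were called in those runs, in the same order.

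PLX3X_CD30 was higher than PLX3X_CD0 in Ciart (0.73 ± 0.14), Per2 (0.56 ± 0.13) and Nr1d1 (0.30 ± 0.07), which is 3 of 10 members where 3.8% of all genes were called, 1.87% higher and 1.93% lower. Per1 (0.51 ± 0.15) was above PLX3X_CD0 in every library without passing the threshold, and with Clock, below it, made 5 members without overlap, against 24.2% of all genes. The count was 1 without PLX3X_CD0 replicate 2 or 3 or PLX3X_CD30 replicate 1 or 2, and 4 without PLX3X_CD30 replicate 3. Those runs called 1.71% to 2.51% of all genes. Of 13 alternatives the Per2 call was lost in 7 and the Nr1d1 call in 5. Against PLX1X, a comparison added after PLX1X had been seen to stand apart, PLX3X_CD30 had lower Ciart (-0.73 ± 0.14) and higher Arntl (0.46 ± 0.09), 2 of 10 members where 1.21% of all genes were called, 1.08% higher and 0.129% lower. Per2 (-0.38 ± 0.13) and Dbp (-0.42 ± 0.15) were below PLX1X in every library and did not pass, and with Npas2 above it 5 members had no overlap, against 23.3% of all genes. The count was 0 without PLX1X replicate 2 and 1 without PLX1X replicate 1 or PLX3X_CD30 replicate 2 or 3. Those runs called 0.557% to 0.838% of all genes.

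IR_BMT was lower than PLX3X_CD30 in Per2 (-0.75 ± 0.13), Ciart (-0.62 ± 0.14), Cry1 (-0.40 ± 0.11) and Per3 (-0.27 ± 0.08) and higher in Npas2 (0.27 ± 0.07), 5 of 10 members where 16.5% of all genes were called, 7.63% higher and 8.88% lower. Groups did not overlap for 6 members, against 37.2% of all genes. The count was 3 without PLX3X_CD30 replicate 1 or 2 or IR_BMT replicate 1 or 3. Those runs called 9.13% to 15.7% of all genes. Against PLX1X, in the other added comparison, 9 of 10 members were called where 28.5% of all genes were, 13.9% higher and 14.6% lower, and the same 9 had no overlap, against 44.3% of all genes. Ciart (-1.36 ± 0.14), Per2 (-1.13 ± 0.13), Dbp (-0.67 ± 0.15), Per1 (-0.59 ± 0.15), Cry1 (-0.56 ± 0.11) and Per3 (-0.38 ± 0.08) were lower in IR_BMT, and Npas2 (0.53 ± 0.07), Arntl (0.36 ± 0.09) and Clock (0.19 ± 0.07) were higher. Nr1d1 did not pass, at -0.06 ± 0.07, but was at -0.31 and called with the length and GC correction. The Clock call was lost in 7 of 13 alternatives.

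To place each library on the clock as a whole, the mean log2 level of each arm (pseudocount 0.5 CPM) was taken relative to its NT mean. The repressor and output arm stood at 0.75 ± 0.10 in PLX1X, 0.00 ± 0.06 in PLX3X_CD0, 0.41 ± 0.23 in PLX3X_CD30 and 0.05 ± 0.15 in IR_BMT, against 0 ± 0.06 in NT (SD, n = 3 each). The activator arm stood at -0.18 ± 0.10 in PLX1X, 0.22 ± 0.10 in PLX3X_CD0, 0.09 ± 0.06 in PLX3X_CD30 and 0.18 ± 0.06 in IR_BMT, against 0 ± 0.10 in NT. In PLX1X the arms lay on opposite sides of the NT mean, but its activator arm overlapped NT. There PLX1X replicate 3 was at -0.06 and NT replicate 1 at -0.11. In PLX3X_CD0 and IR_BMT only the activator arm lay above every NT library. An arm mean can hide differences among its genes. In IR_BMT against NT, Npas2 stood at 0.35 and Clock at 0.20, but Arntl at -0.01. In its repressor and output arm, Nr1d1 (0.49), Ciart (0.37) and Per1 (0.03) were above 0 and Per2 (-0.21), Dbp (-0.16) and Per3 (-0.15) below. The difference between the arms was 0.92 ± 0.11 in PLX1X, with 0.84, 1.05 and 0.88 in its 3 libraries, against 0.19, -0.11 and -0.07 in the NT libraries. It was 0.52, 0.43 and 0.00 in PLX3X_CD30, whose replicate 3 lay at the NT mean. It was -0.35, -0.09 and -0.22 in PLX3X_CD0 and -0.33, 0.09 and -0.14 in IR_BMT, and both groups overlapped NT. The lowest library of each was replicate 1, the one with high choroid plexus genes, whose part in the result was not tested. PLX1X overlapped no other group.

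**Figure D3:**
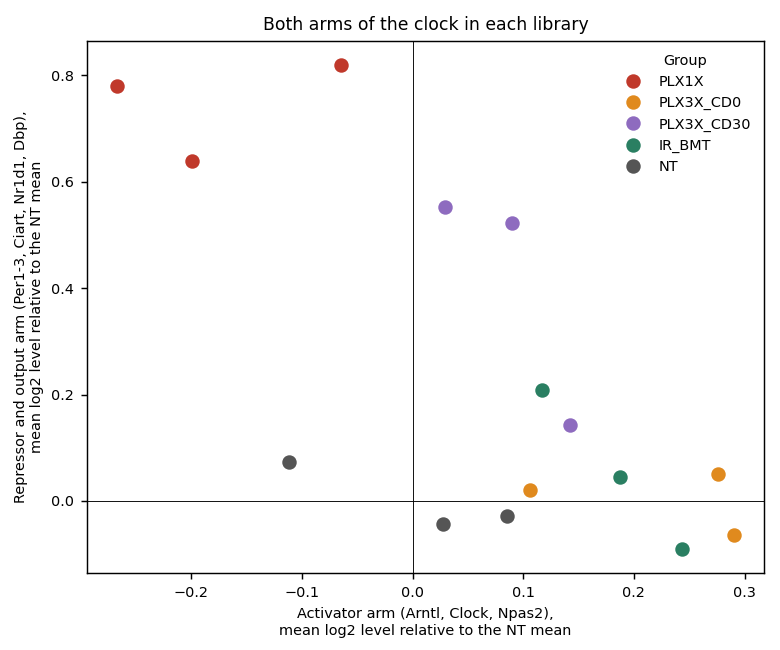
Mean log2 level of the repressor and output arm (y axis) against that of the activator arm (x axis) in each library (points), both relative to the NT mean. The 3 PLX1X libraries lie alone at the upper left, with a difference between the arms of 0.84 to 1.05.

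Beyond the 10 members, 23 further genes of the clock and its direct output were listed, all in the table and all tested; the list was drawn up with earlier results of these data known. In PLX1X 9 rose and 0 fell, in PLX3X_CD0 6 rose and 3 fell, in PLX3X_CD30 5 rose and 0 fell, and in IR_BMT 6 rose and 3 fell, against NT in each case. Of all genes 18.1%, 21.7%, 6.57% and 30.6% were called in the same comparisons. Their median log2 fold change was 0.11 in PLX1X, 0.09 in PLX3X_CD0, 0.06 in PLX3X_CD30 and -0.02 in IR_BMT, where that of all genes was -0.04, -0.03, -0.02 and -0.05 in the same order. Nr1d2, the paralogue of Nr1d1 with the same repressor role, was at 142 ± 0.552 CPM in PLX1X and 85.3 ± 4.80 CPM in NT (SD, n = 3 each), a log2 fold change of 0.74 ± 0.07 (adjusted p = 5.75e-07). It also rose in PLX3X_CD0, by 0.22 ± 0.07 (adjusted p = 0.021), and in PLX3X_CD30, by 0.40 ± 0.07 (adjusted p = 0.00138), and in IR_BMT it was at 0.02 ± 0.07 (adjusted p = 0.87). Nr1d2 was lower in IR_BMT than in PLX1X, at -0.72 ± 0.07 (adjusted p = 7.36e-07).

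Other E-box and D-box genes gave mixed values. Bhlhe40, a repressor that competes for E-boxes, rose in PLX1X by 0.64 ± 0.16 (adjusted p = 0.0177) and did not pass in PLX3X_CD30, at 0.48 ± 0.16 (adjusted p = 0.113), PLX3X_CD0, at -0.11 ± 0.16 (adjusted p = 0.709), or IR_BMT, at -0.12 ± 0.16 (adjusted p = 0.629). Its relative Bhlhe41 fell in IR_BMT and PLX3X_CD0. Bhlhe41 was at 10.7 ± 1.19 CPM in IR_BMT and 24.8 ± 2.56 CPM in NT (SD, n = 3 each), a log2 difference of -1.21 ± 0.11 (adjusted p = 8.52e-07), and in PLX3X_CD0 it stood at -0.74 ± 0.11 (adjusted p = 8.7e-05). In PLX1X, at -0.23 ± 0.11 (adjusted p = 0.159), and PLX3X_CD30, at -0.36 ± 0.11 (adjusted p = 0.0585), Bhlhe41 did not pass. Tef, a D-box factor like Dbp, rose in PLX1X by 0.29 ± 0.06 (adjusted p = 0.00103), and was lower in PLX3X_CD30 than in PLX1X, at -0.23 ± 0.06 (adjusted p = 0.0467). Hlf, the third factor of that family, did not pass against NT in any group, with values from -0.12 in IR_BMT to 0.16 in PLX1X. Cry2, the second cryptochrome, rose by 0.28 ± 0.06 (adjusted p = 0.00193) in PLX1X, 0.18 ± 0.06 (adjusted p = 0.0271) in PLX3X_CD0 and 0.17 ± 0.06 (adjusted p = 0.0301) in IR_BMT, and was at 0.18 ± 0.06 (adjusted p = 0.0638) in PLX3X_CD30.

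The further list also held kinases, F-box genes and a deubiquitinase that act on clock proteins, and their values were mixed. Btrc and Fbxw11, whose F-box proteins mark PER proteins for breakdown, rose in all 4 treated groups, Btrc by 0.24 to 0.32 and Fbxw11 by 0.23 to 0.34 on the log2 scale. Usp2, a deubiquitinase of clock proteins, also rose in all 4, by 0.36 in PLX1X, 0.19 in PLX3X_CD0, 0.23 in PLX3X_CD30 and 0.23 in IR_BMT. Csnk1d, a kinase of PER proteins, rose in PLX1X (0.19), PLX3X_CD30 (0.19) and IR_BMT (0.25), and its relative Csnk1e in IR_BMT (0.20). Nampt, an enzyme of NAD synthesis under clock control, rose in PLX1X (0.21) and PLX3X_CD0 (0.25). The kinase gene Gsk3b fell in PLX3X_CD0 (-0.21) and IR_BMT (-0.30). Of the nuclear receptors that activate Arntl, Rora fell in PLX3X_CD0, at -0.44, and Rorb in IR_BMT, at -0.38; Rora is also a thalamic gene, and the NT library with high thalamic markers is among those it was compared with.

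**Figure D4:**
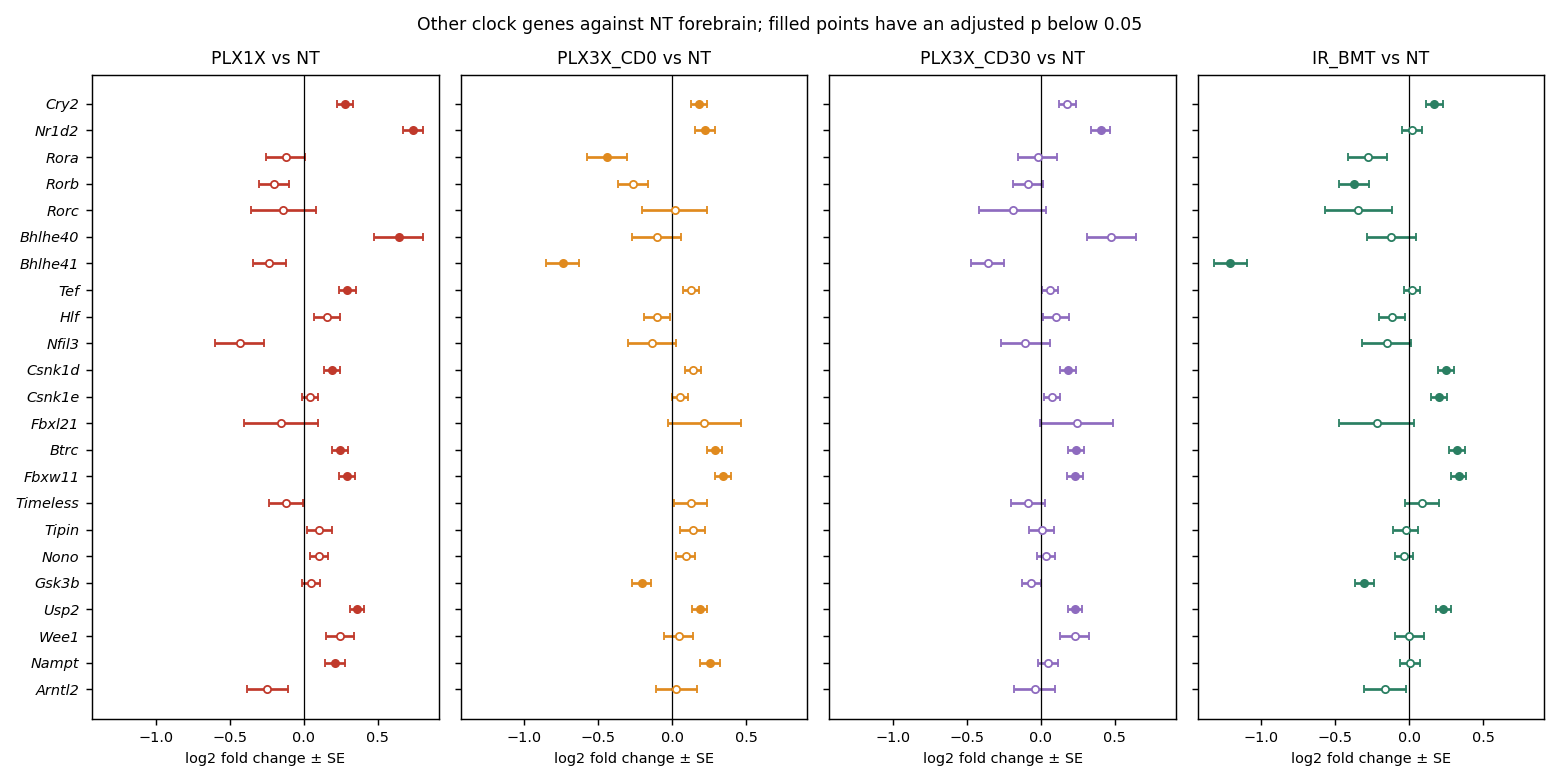
Log2 fold change against NT (x axis, the same in each panel, with SE as bars) of 23 further clock genes (rows) in PLX1X, PLX3X_CD0, PLX3X_CD30 and IR_BMT (panels); filled points passed an adjusted p of 0.05. Nr1d2, at 0.74, is the highest filled point of PLX1X, and Bhlhe41, at -1.21, the lowest of IR_BMT.

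Of 13972 non-member genes whose average log2 CPM was 1 or more, those whose log2 level ran most like the difference between the arms over the 15 libraries were Snx1, Mthfd1l, Txnrd1, Gm19439, Slc38a2, Errfi1, Tsc22d3, Peli1, Uchl3 and Nr1d2, with Pearson r from 0.91 for Snx1 to 0.84 for Nr1d2. The libraries of a group share their treatment, so the r of the deviations from the group means is given beside it: it was 0.79 for Mthfd1l, 0.76 for Gm19439 and 0.74 for Txnrd1, but 0.31 for Nr1d2 and 0.06 for Tsc22d3. Mthfd1l, a mitochondrial enzyme of folate metabolism, had 24.2 ± 1.91 CPM in PLX1X, 14.3 ± 0.485 in PLX3X_CD0, 16.1 ± 2.87 in PLX3X_CD30 and 12.1 ± 1.47 in IR_BMT, against 12.2 ± 1.74 CPM in NT (SD, n = 3 each). Tsc22d3, a glucocorticoid-induced gene also called Gilz, had 113 ± 3.96 CPM in PLX1X, 77.3 ± 3.54 in PLX3X_CD0, 95.7 ± 4.22 in PLX3X_CD30 and 69.0 ± 0.761 in IR_BMT, against 81.7 ± 5.79 CPM in NT. Among the members of the arms, which make up the difference, r ran from 0.58 for Nr1d1 to 0.94 for Dbp in the repressor and output arm. In the activator arm it ran from -0.65 for Clock to -0.82 for Npas2. For Cry1, which is in neither arm, r was 0.74.

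Tsc22d3 was not alone among glucocorticoid targets, which adrenal hormone raises in the brain and of which Per1 is one. Of 12 such genes, Per1 left out, 5 rose and 0 fell in PLX1X (Plin4, Sgk1, Errfi1, Tsc22d3 and Zbtb16), and their summed level was 592 to 626 CPM in PLX1X, against 507 to 549 CPM in NT. Of all genes 9.97% rose in PLX1X. In PLX3X_CD0 1 rose, in PLX3X_CD30 2 rose, and in IR_BMT 1 rose and 1 fell, with sums of 476 to 587, 556 to 593 and 513 to 603 CPM. The shares of all genes that rose were 12.2%, 4.74% and 15.1% in the same order, and 15.4% fell in IR_BMT. Immediate early genes, which mark recent neuronal activity, summed to 1813 to 2803 CPM in PLX1X, 1195 to 1568 CPM in PLX3X_CD0 and 2022 to 2258 CPM in IR_BMT, against 1322 to 2273 CPM in NT. In PLX3X_CD30 they summed to 2185, 2213 and 1638 CPM, lowest in replicate 3, which was also lowest in Per1, Per2, Ciart and Dbp. In PLX1X replicate 1 was likewise lowest in the sum and in those genes. The other groups differed. IR_BMT replicate 1 had the highest sum of its group, 2258 CPM, and the lowest Per1, Per2, Ciart and Dbp. In PLX3X_CD0 the sum was lowest in replicate 2, and Per1, Per2 and Dbp in replicate 1. In NT replicate 2 was lowest in the sum, Per1 and Per2 but not in Ciart or Dbp. Of the 11 immediate early genes, 3 (Fosb, Dusp1 and Ier2) rose in IR_BMT, where 15.1% of all genes rose and Per1 stood at 0.03 ± 0.15. In PLX1X, PLX3X_CD0 and PLX3X_CD30 against NT 0 of the 11 were called, where 18.1%, 21.7% and 6.57% of all genes were. The part of either list in the values of the clock genes was not tested.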

How the data were processed

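The SMARTer Ultra Low kit gave the bulk cDNA, which was read as 150-base pairs on a NovaSeq-6000, per the labels' protocols. The authors deposited raw counts per gene, and DRAGEN, DESeq2 and mm10 are named in the submitters' processing notes; their versions and roles and the strand handling are not given in the sources here. The table held 55774 rows, of which 287 repeated an identifier and were removed. Among counts of 1 to 4, 70.6% to 74.7% were even, so many counts may hold both mates of a pair, and each test rests on the variation among libraries.

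The 21780 genes kept by filterByExpr were fitted in edgeR 4.0.16 (R 4.3.3) with TMM factors, 1 mean per group over all 15 libraries and robust quasi-likelihood F-tests, two-sided. P-values were adjusted by Benjamini-Hochberg over all genes, and each SE is the size of the log2 change divided by the square root of F. The fit was tested on simulated counts. Members, gene lists, comparisons and alternatives were chosen with earlier results of these data known. One further clock gene is not reported here. Text names every member, the further clock genes past the threshold plus Nr1d2, Cry2, Bhlhe41, Tef and Hlf, and the 10 non-members most like the difference between the arms. Positions came from GENCODE M21 on mm10 and promoters from RefSeq. Alternatives were DESeq2 1.42.0, RLE factors, no filter, a stricter filter, fits of 6 libraries, the replicate number as a block and leaving out each library. A length and GC offset and the comparisons of PLX3X_CD30 and IR_BMT with PLX1X were added after seeing the data.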

Additional observations from a re-analysis of the deposited data

How the results depend on the processing

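No fold change of a member that was called in the main fit, and no difference between the arms, changed sign under any alternative. The counts of members called depended more on single libraries. Leaving out 1 library gave 4 (without PLX1X replicate 2) to 7 members in PLX1X against NT, 1 to 2 in PLX3X_CD0 against NT, 2 (without NT replicate 1) to 4 in IR_BMT against NT, 4 (without PLX1X replicate 2) to 7 in PLX3X_CD0 against PLX1X, 1 to 4 in PLX3X_CD30 against PLX3X_CD0 and 3 to 6 in IR_BMT against PLX3X_CD30, the highest of the last 2 without PLX3X_CD30 replicate 3. In the added comparison of PLX3X_CD30 with PLX1X it gave 0 (without PLX1X replicate 2) to 2, where 0.557% to 0.838% of all genes were called. In that of IR_BMT with PLX1X it gave 7 to 9, where 20.2% to 25.5% of all genes were called. Of the 23 further clock genes it left 5 (without NT replicate 1) to 10 called in PLX3X_CD0 and 3 (without PLX3X_CD30 replicate 2 or 3) to 6 in PLX3X_CD30, both against NT. Calls over all genes moved too. Fits without 1 library called 12% to 17.6% of all genes in PLX1X and 15.6% to 22.8% in PLX3X_CD0 against NT. They called 2.71% to 7.65% in PLX3X_CD30 and 22.6% to 30.5% in IR_BMT against NT. The range was 0.668% to 1.29% in PLX3X_CD0 against PLX1X, where all 15 libraries gave 2.46%. It was 1.71% to 2.51% in PLX3X_CD30 against PLX3X_CD0 and 8.77% to 15.7% in IR_BMT against PLX3X_CD30. With no filter on low counts the members called were 4 in PLX3X_CD0 against NT and 5 in PLX3X_CD30 against PLX3X_CD0, and in the added comparison of PLX3X_CD30 with PLX1X 6 in place of 2. Of all genes 12.4%, 3.46% and 1.73% were called in the same order. A fit of only the 6 libraries compared called 0 members in PLX3X_CD0 against NT. It called 6, 3 and 1 of the further genes in PLX1X, PLX3X_CD0 and PLX3X_CD30 against NT. Of all genes it called 10.4%, 12.1% and 1.75% there, against 18.1%, 21.7% and 6.57% in the main fit. In every comparison without NT it called more of all genes than the main fit, such as 3.68% against 2.46% in PLX3X_CD0 against PLX1X.

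The length and GC offset moved the median log2 fold change of all genes in PLX1X against NT to 0.07, against -0.04 without it. It left 6 members called there, where 24.7% of all genes were called. Dbp in IR_BMT against PLX1X was at -1.06 with the offset. The values did not settle whether replicate numbers pair the libraries. Of 30 same-number pairs, 7 had a correlation of deviations over 0.1, with a highest of 0.39 and a median of -0.01. The median of different-number pairs was 0.003, and 8 of 15 libraries correlated best with their own number. With the replicate block the members called were 6 in PLX1X, 2 in PLX3X_CD0, 3 in PLX3X_CD30 and 4 in IR_BMT against NT. Of all genes 17.6%, 21%, 5.7% and 29.9% were called in the same order. With 3 libraries a group and no hour of collection in the labels, a change of phase cannot be told from a change of level in these data.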
